A study of Mus musculus with 12 samples.

Results

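The comparison described here is Sdc1 knockdown in unstimulated B16 cells, a mouse melanoma line. It uses 6 of the 12 RNA-seq libraries of the study, the 3 shSdc1 and the 3 shRFP libraries that the labels give as unstimulated. All genes with enough counts over the 12 libraries entered it, which were 14089 of the 27472 with at least 1 count. The cells had been transfected with a short hairpin RNA against Sdc1 (shSdc1) or, as the control, one against the red fluorescent protein RFP (shRFP), and grown in DMEM with 10% fetal bovine serum. The other 6 libraries are the same 2 kinds of cell given interferon gamma (IFNg) at 10 ng/ml for 24 h. They were used to set the spread between replicates and to test whether an effect differed with IFNg. They also entered the count filter, so 20 of the genes tested had no count in the 6 unstimulated libraries. The filter kept 13487 genes in those 6 libraries alone. How many hairpins were used per target is not stated in the labels, and a hairpin's effects on transcripts other than Sdc1 cannot be told apart from those of the lower Sdc1 level. The labels do not say whether the replicates were separate cultures, so each p-value covers the variation among these libraries alone, and part of that variation may be technical.

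Syndecan-1, the protein made from Sdc1, is a single-pass membrane protein whose outer part carries heparan sulfate chains. Those chains hold growth factors, chemokines and matrix proteins at the cell surface, and the inner part contacts the actin skeleton. In melanoma the best-known readouts of cell state are pigment genes, matrix genes and chemokines, and the programs below lie outside those 3 sets: amino acid supply, redox balance, growth factor signalling, the cytoskeleton, proteases and metabolism.

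Library totals ran from 14337771 to 21548940 counts in the 6 libraries. The 7 melanocyte markers Pmel, Mlana, Tyr, Tyrp1, Dct, Mitf and Sox10 were all expressed in both groups, with means from 246 CPM (counts scaled to library size with TMM factors) for Mitf in shSdc1 to 6207 CPM for Tyrp1 in shRFP. Markers of other cells were scarce. Of 19 leukocyte genes 10 had no count in any of the 6 libraries, among them Cd3e, Ms4a1, Itgam, Adgre1 and Csf1r, and the whole list summed to 3.75 to 3.84 CPM in shRFP and 9.18 to 9.35 CPM in shSdc1. The list of 10 fibroblast genes summed to 78.1 to 81.2 CPM in shRFP and 74.7 to 80.8 CPM in shSdc1. Dcn and Lum were at 0, and 3 genes, those included, had under 10 counts in all. Of the 5 that passed the count filter 1 was higher and 1 lower in shSdc1, with log2 fold changes from -1.70 to 1.22 over the 5. Endothelial genes summed to at most 2.48 CPM, and 6 of 8 epithelial genes were at 0. The first principal component of the 6 libraries held 59.4% of the variance and separated shSdc1 from shRFP.

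One library stood apart. In shSdc1 replicate 3 an rRNA-like locus, ENSMUSG00000119584, took 4.79% of all counts, against 0.0842% to 0.195% in the other 5. The second principal component, with 13.9% of the variance, separated this library from the other two of its group. Of 10305 genes with a mean of at least 5 CPM in either group, 83.2% were within 1.1-fold of the mean of shSdc1 replicates 1 and 2, and 22 were at least 2-fold away. In shRFP replicate 3, set against replicates 1 and 2 of its group, 11 genes were at least 2-fold away. The 22 of shSdc1 replicate 3 were mostly assembled loci and entries without a symbol (8), predicted genes and ribosomal protein copies. The rest were Lars2, Hist1h2bc, mt-Rnr1, Sumo2, Eif3j2 and Srp54b. Genes of replication-dependent histones, whose mRNAs lack a poly(A) tail, summed to 101 CPM in this library without TMM factors. By the same measure they summed to at most 21.2 CPM in the other shSdc1 libraries and 23.6 to 26.9 CPM in shRFP. The mitochondrial ribosomal RNA mt-Rnr2 was at 1170 CPM, against 678 and 695 CPM in the other shSdc1 libraries. Without this library 1666 genes rose and 1660 fell, of which 1594 and 1584 were among those called with all libraries. Among entries past the test both with and without it, direction changed for 5: the rRNA-like locus, 3 assembled loci and Lars2. Lars2, a mitochondrial leucyl-tRNA synthetase gene, went from a log2 fold change of 2.18 to -0.35 (edgeR adjusted p = 0.0187 and 0.0318). Other calls also rested on this library. A further assembled locus was at 78.3, 56.4 and 1750 CPM in shSdc1 and 96.0, 75.1 and 86.7 CPM in shRFP (edgeR adjusted p = 0.0103). Such entries remain in the counts over all genes with all libraries, and none is described as changed here. Of the 175 genes chosen by rule for description, 165 still passed the test without the library and none changed direction.

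Sdc1 itself was at 76.4, 73.9 and 75.9 CPM in the 3 shRFP libraries and at 23.4, 22.1 and 25.7 CPM in the 3 shSdc1 libraries. The groups did not overlap, and the log2 fold change was -1.67 ± 0.08 (SE), a 3.18-fold lower level (edgeR adjusted p = 2.48e-11). Over all genes tested, 4024 passed the test (edgeR quasi-likelihood, Benjamini-Hochberg adjusted p under 0.05), which is 28.6%. Of these 1969 (14.0%) were higher and 2055 (14.6%) lower in shSdc1. Changes of at least 2-fold were fewer, with 324 genes higher (2.30%) and 161 lower (1.14%). For 6097 genes (43.3%) the ranges of the groups did not overlap. The median log2 fold change over all genes was 0. In bulk RNA a lower level can mean fewer cells of one state or less RNA per cell, and these cannot be told apart here.

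Among genes outside the pigment, matrix and chemokine sets, the highest fold changes fell on genes that were close to silent in control cells. Slc38a3, a transporter that takes up glutamine and histidine, was at 0.410, 0.297 and 0.138 CPM in shRFP and 8.38, 8.70 and 7.39 CPM in shSdc1 (log2 fold change 4.73 ± 0.28, edgeR adjusted p = 3.12e-10). Xdh, the xanthine dehydrogenase that makes uric acid, went from 0.684, 0.593 and 0.622 to 6.99, 6.13 and 6.47 CPM (3.34 ± 0.23). Serpinb1a, an inhibitor of neutrophil-type serine proteases, went from 0.319, 0.831 and 0.829 to 7.71, 6.94 and 6.72 CPM (3.50 ± 0.24). Each of these was under 1 CPM in every control library and above 6 CPM in every knockdown library. Sema3f, a secreted guidance cue, rose from 0.866, 1.72 and 1.52 to 8.51, 7.57 and 8.80 CPM (2.64 ± 0.19), and Serpinb9b, a serpin of the same clade as Serpinb1a, from 1.46, 1.78 and 0.898 to 9.96, 8.07 and 7.64 CPM (2.60 ± 0.22). Cfap70, a cilium-associated gene, was at 2.64, 2.61 and 2.69 CPM in shRFP and 15.3, 16.2 and 16.2 CPM in shSdc1 (2.58 ± 0.11), with a small spread in both groups.

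Etv5, an ETS-family transcription factor induced by receptor kinase signalling, rose from 3.15, 2.43 and 2.28 to 13.8, 13.3 and 15.8 CPM (log2 fold change 2.42 ± 0.16). Tinagl1, a secreted matrix-associated protein, rose from 6.75, 4.80 and 4.77 to 28.1, 25.5 and 28.6 CPM (2.31 ± 0.11) and Capn6, a calpain-family gene, from 4.10, 3.98 and 4.97 to 20.9, 18.8 and 21.3 CPM (2.23 ± 0.12). The ranges of these 3 lay apart between groups, as the rule that chose them required. The complement protease C1s1 went from 2.51, 1.66 and 1.45 to 9.11, 7.76 and 8.80 CPM (2.14 ± 0.23), and the integrin subunit Itgb8, which binds latent TGF-beta, from 2.73, 2.91 and 2.14 to 10.2, 9.26 and 12.03 CPM (2.00 ± 0.18). Cp encodes ceruloplasmin, the copper-carrying ferroxidase of plasma and cell surfaces. It was at 122, 114 and 113 CPM in shRFP and 487, 492 and 486 CPM in shSdc1 (2.07 ± 0.06, edgeR adjusted p = 2.65e-14). Cp shares 108 exonic bases with Hps3 on the opposite strand in the GENCODE M21 annotation, and the strand setting of the counting is not given in the sources used here. Hps3 fell over the same libraries (log2 fold change -0.49 ± 0.05).

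**Figure D1:**
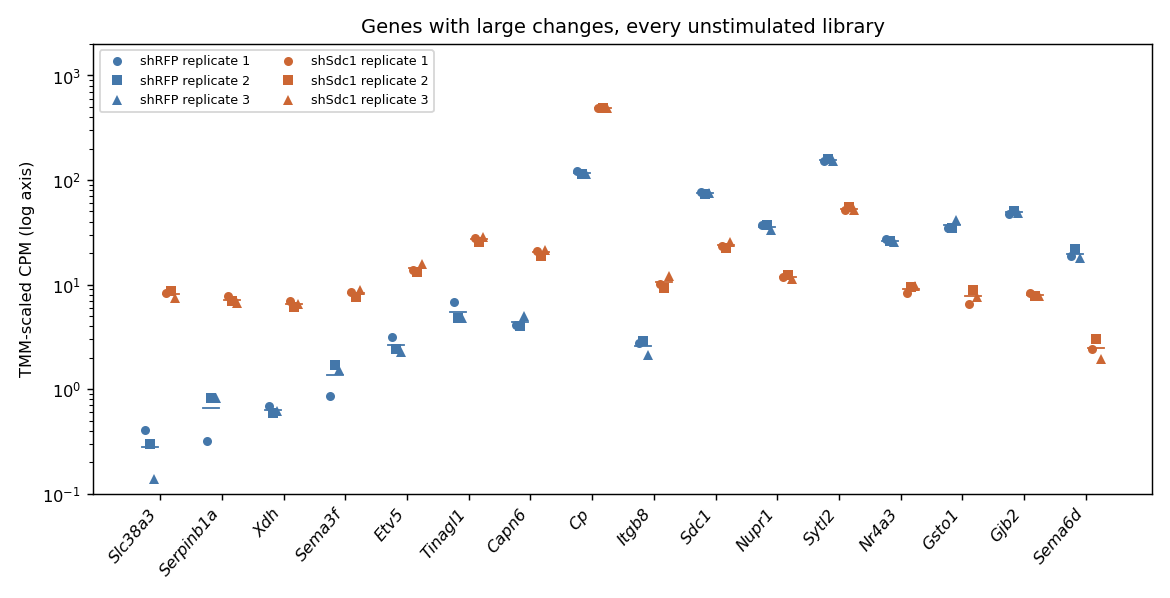
TMM-scaled CPM on a log axis for 16 genes with high or low fold changes, with 1 point per unstimulated library (blue shRFP, orange shSdc1, marker shape for the replicate) and a bar at the group mean. In each gene the 3 orange points lie apart from the 3 blue ones, a condition of the rule that chose these genes. Cp, for example, stood at 113 to 122 against 486 to 492 CPM.

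The lowest fold changes included another semaphorin. Sema6d, which is membrane-bound, fell from 18.8, 22.1 and 18.0 CPM in shRFP to 2.43, 3.00 and 1.96 CPM in shSdc1 (log2 fold change -2.99 ± 0.17, edgeR adjusted p = 2.04e-10). Gjb2, which encodes the gap junction protein connexin 26, fell from 47.5, 50.8 and 48.6 to 8.26, 7.69 and 7.70 CPM (-2.63 ± 0.08). Gsto1, an omega-class glutathione transferase, fell from 34.6, 34.6 and 41.1 to 6.56, 8.88 and 7.64 CPM (-2.25 ± 0.11). All 3 were well expressed in every control library and low in every knockdown library. Prkcz, an atypical protein kinase C, fell from 5.70, 4.80 and 5.25 to 1.40, 1.75 and 2.14 CPM (-1.58 ± 0.20). The orphan receptor gene Gpr37 fell from 15.4, 16.6 and 16.6 to 4.68, 5.50 and 7.09 CPM (-1.49 ± 0.13), and Smim11, a small membrane protein gene, from 17.1, 19.2 and 17.6 to 6.08, 7.51 and 5.25 CPM (-1.52 ± 0.12). Sytl2 encodes a partner of the small GTPase Rab27 in moving melanosomes and other granules. It fell from 153, 158 and 152 to 51.5, 55.5 and 51.6 CPM (-1.55 ± 0.05). Nupr1, Sox9 and Nr4a3, also among the lowest 12, are given with their programs below.

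The gene lists differed in how often and in which direction their members passed. Of 39 lists, the share of members lower was largest for ATF4 and the integrated stress response, aminoacyl-tRNA synthetases and amino acid transporters, and the share higher was largest for serpins, heparan sulfate carriers and actin regulators. The counts of each list stand against 14.0% higher and 14.6% lower over all genes, or 28.6% in either direction.

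**Figure D2:**
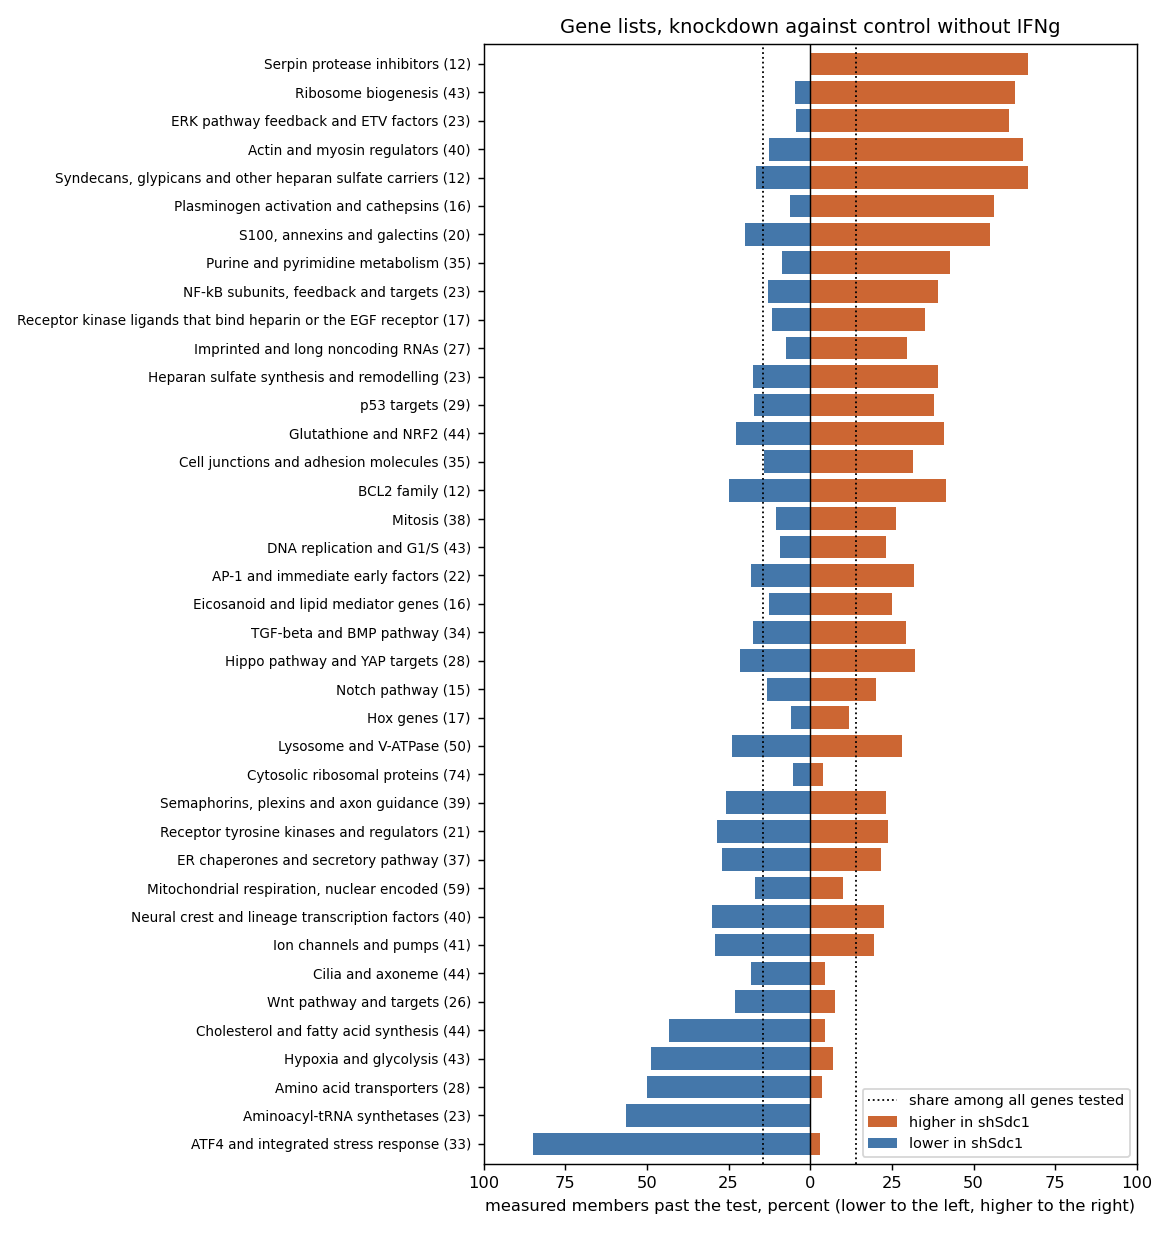
Share of measured members, in percent, that were lower (blue, left) or higher (orange, right) in shSdc1 for 39 gene lists, with the number measured in brackets and dotted lines at the shares over all genes tested, 14.6% lower and 14.0% higher. The ATF4 list stands at the lower end with 28 of 33 members lower, and the serpins stand at the top with 8 of 12 higher.

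ATF4 is the transcription factor at the end of the integrated stress response: kinases that sense missing amino acids, unfolded protein or other stress phosphorylate eIF2alpha, translation of most mRNAs slows, and ATF4 protein rises and turns on genes for making, importing and charging amino acids. Of the 33 measured genes of this program 28 fell in shSdc1 (14.6% of all genes), 1 rose and 4 did not pass, with a median log2 fold change of -0.64 against 0 over all genes. Ranges did not overlap for 29 of the 33, the 28 that fell included, against 43.3% of all genes. Atf4 mRNA was at 566, 549 and 573 CPM in shRFP and 386, 399 and 407 CPM in shSdc1 (log2 fold change -0.50 ± 0.04, edgeR adjusted p = 2.02e-08). Nupr1, a small stress-induced nuclear protein, had the largest fall, from 36.9, 37.5 and 33.0 to 11.8, 12.4 and 11.2 CPM (-1.60 ± 0.09). Ddit4, an inhibitor of mTORC1, fell from 65.6, 68.4 and 71.2 to 25.9, 28.3 and 26.6 CPM (-1.34 ± 0.09). Gpt2, the mitochondrial alanine transaminase, fell from 95.3, 92.9 and 93.8 to 37.9, 42.8 and 43.2 CPM (-1.19 ± 0.07), and Chac1, which breaks down glutathione, from 62.2, 62.5 and 60.5 to 25.1, 29.3 and 27.2 CPM (-1.18 ± 0.10). The groups did not overlap in any of these genes, and the 3 libraries of each group lay close together. Among the enzymes of the program, Pck2 fell from 144, 146 and 141 to 65.3, 76.8 and 67.8 CPM and the asparagine synthetase Asns from 385, 376 and 362 to 199.5, 215 and 203 CPM. The proline enzymes Pycr1 (-0.91 ± 0.13) and Aldh18a1 (-0.79 ± 0.04), the serine enzyme Psph (-0.82 ± 0.05) and the mitochondrial folate enzymes Mthfd2 (-0.64 ± 0.05) and Shmt2 (-0.63 ± 0.04) fell as well. Serine synthesis fell less at its first steps, with Psat1 at -0.27 ± 0.04 and Phgdh at -0.12 ± 0.04, and the call of Phgdh ended without any one of shRFP replicates 2 and 3 and shSdc1 replicates 1 and 3 (edgeR adjusted p = 0.053, 0.0795, 0.0763 and 0.0997). Cbs, the first enzyme that turns homocysteine toward cysteine, was the member that rose (1.12 ± 0.34), but it did not pass without shRFP replicate 3 or shSdc1 replicate 3 (edgeR adjusted p = 0.0676 and 0.0546). Gdf15, Slc7a11, Slc7a3 and the sensor kinase Eif2ak4 did not pass (log2 fold changes 0.00, 0.15, -0.15 and 0.04).

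**Figure D3:**
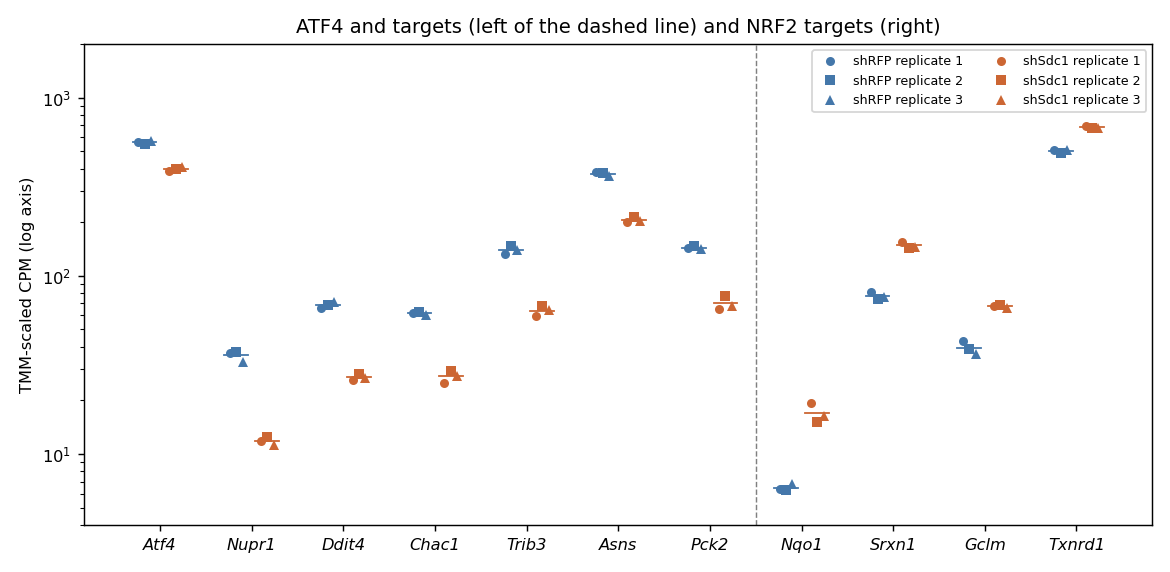
TMM-scaled CPM on a log axis for Atf4 and 6 of its known targets (left of the dashed line) and 4 known NRF2 targets (right), 1 point per unstimulated library with a bar at the group mean. The shSdc1 libraries (orange) lie below shRFP (blue) for all 7 genes on the left, as for Chac1 at 25.1 to 29.3 against 60.5 to 62.5 CPM, and above it for all 4 on the right. Those 4 are among the NRF2 targets that rose, and Hmox1, another target, fell and is not drawn.

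Promoter letters of these genes are shown because ATF4, paired with a C/EBP protein, is known to bind a composite element written here as TGATGNAA, searched on both strands. RefSeq promoters (build GRCm38.p6) were matched by symbol for 9747 of the genes tested. Counts and shares are for the 250 bases before the start, unless the 50 bases after it are named as added. The letters stood in 1.9% of all those promoters. Of the 53 genes that fell in the ATF4, synthetase or transporter lists 40 had a promoter in the table, and 9 of them held the letters. The ATF4 list is made of known targets, so its share of letters does not bear on the fall. There the letters stood in 6 of 23 genes that fell and in 7 of 27 of the whole list. For synthetases the counts were 3 of 8 and 3 of 15, and for transporters 0 of 9 and 2 of 19. With the 50 bases after the start added, they were 5 of 8 and 5 of 15 for synthetases. For transporters they were then 1 of 9 and 3 of 19. Among all genes past the test and lower the share was 2.2%. The stretches printed are from Nupr1 (chr7:126625537-126625616, minus strand), Chac1 (chr2:119351013-119351092, plus strand), Pck2 (chr14:55540127-55540206, plus strand), Asns (chr6:7693210-7693268, minus strand), Herpud1 (chr8:94386281-94386360, plus strand) and the alanyl-tRNA synthetase gene Aars (chr8:111033694-111033773, plus strand). Each reads 5' to 3' toward the gene, with the matching letters in capitals.
Nupr1: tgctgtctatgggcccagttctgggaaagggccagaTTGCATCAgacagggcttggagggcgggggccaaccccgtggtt
Chac1: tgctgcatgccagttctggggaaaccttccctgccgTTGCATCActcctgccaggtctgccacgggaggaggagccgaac
Pck2: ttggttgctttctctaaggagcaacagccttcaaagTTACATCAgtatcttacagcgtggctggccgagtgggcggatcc
Asns: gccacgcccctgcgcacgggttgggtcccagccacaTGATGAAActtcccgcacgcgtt
Herpud1: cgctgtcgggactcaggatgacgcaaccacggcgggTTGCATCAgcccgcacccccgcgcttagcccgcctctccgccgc
Aars: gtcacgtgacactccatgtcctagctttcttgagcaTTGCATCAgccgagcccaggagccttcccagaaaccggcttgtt
The first capital letter lay 110, 193, 103, 23, 112 and 112 bases before the start in the 6 genes. A match describes letters and is no evidence of binding.

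The fall of the ATF4 program in the knockdown was larger in unstimulated cells than in cells given IFNg. The log2 fold change was lower without IFNg for all 33 measured genes, and the difference passed the test for 27 of them, against 9.73% of all genes. Other lists also had many such genes, 50 of 74 for ribosomal proteins and 25 of 59 for nuclear genes of respiration. The median over the 33 was -0.64 without and 0.02 with IFNg. With IFNg 11 of the 33 were lower in shSdc1 and 5 were higher, where 36.3% of all genes passed in either direction. Chac1 averaged 61.7 ± 1.04 and 27.2 ± 2.12 CPM (SD, n = 3) in shRFP and shSdc1 without IFNg, and 16.8 ± 3.87 and 15.5 ± 1.14 CPM with it. Nupr1 averaged 35.8 ± 2.42 and 11.8 ± 0.573 CPM without IFNg and 10.4 ± 1.21 and 8.83 ± 0.744 CPM with it. In both genes the control level was lower with IFNg than without. The mean of control cells was lower with IFNg in 32 of the 33 genes. Without shSdc1 replicate 3 the difference passed for 23 of the list's genes.

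**Figure D4:**
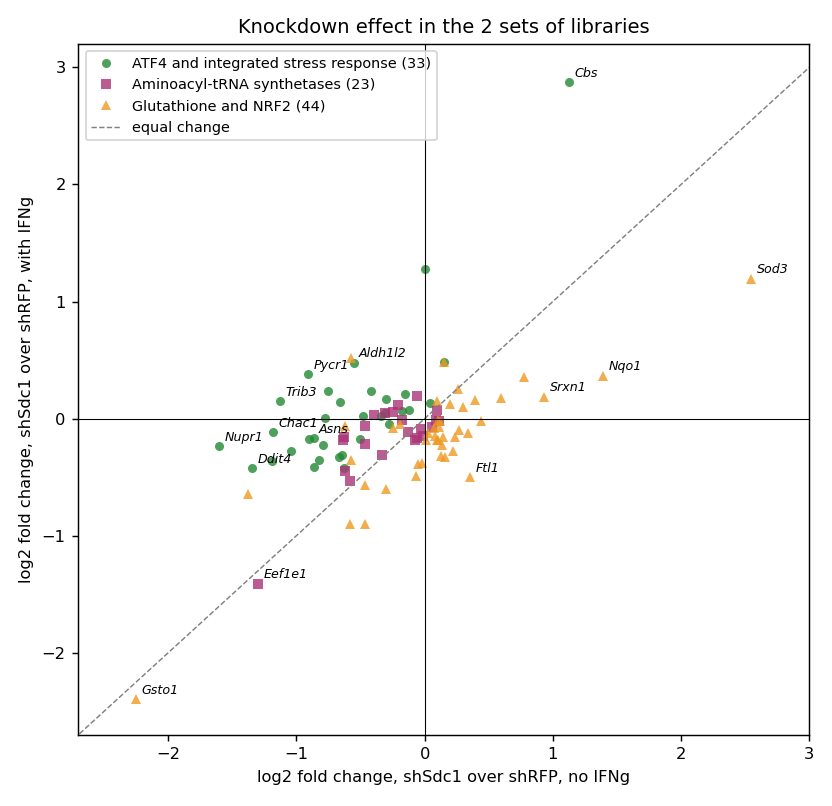
Log2 fold change of shSdc1 over shRFP without IFNg (x axis) and with IFNg (y axis), 1 point per measured gene of 3 lists, with a dashed line where both are equal. Most ATF4 genes (green) lie left of 0 on the x axis and near 0 on the y axis, as Nupr1 at -1.60 and -0.24, while Gsto1 and Eef1e1 lie near the dashed line.

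Aminoacyl-tRNA synthetases load each amino acid on its tRNA, and some sit in a complex held by Aimp1, Aimp2 and Eef1e1. Of the 23 genes of this list, those 3 included, 13 fell and 0 rose, and the median log2 fold change was -0.21. Sars fell from 668, 675 and 679 to 427, 441 and 433 CPM, Cars from 175, 182 and 176 to 116, 116 and 114 CPM and Iars from 498, 516 and 525 to 330.4, 338 and 333 CPM. Mars (-0.58 ± 0.04), Gars (-0.46 ± 0.04), Aars (-0.46 ± 0.03) and Lars (-0.39 ± 0.04) also fell, whereas Hars (-0.01), Rars (0.10), Qars (0.09) and Dars (-0.03) did not pass. Eef1e1, a scaffold of the multi-synthetase complex and no synthetase itself, fell most, from 63.7, 62.9 and 63.5 to 25.8, 26.3 and 25.3 CPM (-1.30 ± 0.05). Its change with IFNg was -1.41, and the difference did not pass (edgeR adjusted p = 0.35), unlike that of Sars (5.53e-05) and Cars (2.14e-04).

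Amino acid transporters fell in 14 of 28 cases and rose in 1, Slc38a3 (2 without shRFP replicate 1). The neutral amino acid exchanger Slc1a5, a main entry for glutamine, fell from 147, 135 and 143 to 72.5, 78.8 and 86.6 CPM (-0.84 ± 0.06). Slc1a4 fell from 104, 105 and 100.3 to 57.7, 60.2 and 56.0 CPM and the glycine transporter Slc6a9 from 23.1, 25.7 and 24.5 to 13.5, 14.5 and 13.7 CPM. Both chains of the large neutral amino acid exchanger fell, Slc7a5 from 352, 371 and 372 to 224, 226 and 238 CPM and Slc3a2 with -0.48 ± 0.05. Slc38a3 and Slc1a5 both carry glutamine and went opposite ways. In the list of endoplasmic reticulum chaperones and secretion 8 rose, 10 fell and 19 did not pass. The 8 became 5 without any one library except shSdc1 replicate 2. Herpud1, which acts in protein quality control there and is also on the ATF4 list, fell from 178, 172 and 176 to 94.1, 96.1 and 99.3 CPM (-0.86 ± 0.05), and Sec61b, a translocon subunit, had -0.33 ± 0.05.

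Genes of glutathione and of the NRF2 response, in which the factor NRF2 turns on antioxidant enzymes, went both ways: 18 of 44 rose, 10 fell and 16 did not pass. Known NRF2 targets were among those that rose. Nqo1, a quinone reductase, went from 6.34, 6.29 and 6.77 to 19.3, 15.1 and 16.3 CPM (log2 fold change 1.39 ± 0.12, edgeR adjusted p = 8.38e-08). Srxn1, sulfiredoxin, went from 81.4, 74.5 and 76.3 to 155, 143 and 145 CPM (0.93 ± 0.05) and Gclm, a subunit of the rate-limiting enzyme of glutathione synthesis, from 43.0, 38.6 and 36.4 to 67.9, 68.9 and 66.4 CPM (0.78 ± 0.06). Txnrd1 (0.44 ± 0.04), Gclc (0.24 ± 0.05), Pgd (0.34 ± 0.05) and Ftl1 (0.36 ± 0.08) rose too. The heme oxygenase gene Hmox1, another NRF2 target, fell (-0.57 ± 0.05), as did G6pdx (-0.46 ± 0.05), Cat (-0.46 ± 0.05) and, most of all, Gsto1. For 22 of the 44 genes the effect differed from that with IFNg, against 9.73% of all genes. Nqo1 had 0.37 with IFNg (difference 1.02, edgeR adjusted p = 0.00107) and Ftl1 was lower with IFNg (-0.50). The secreted superoxide dismutase gene Sod3 rose from 0.0912, 0.119 and 0.138 to 0.972, 0.375 and 0.733 CPM.

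Feedback genes of the ERK pathway, which growth factor receptors switch on, were higher for 14 of 23 and lower for 1 (2 without shRFP replicate 2), and their median log2 fold change was 0.44. Beside Etv5, the related factor Etv4 went from 0.274, 0.356 and 0.207 to 1.76, 2.06 and 2.08 CPM (2.77 ± 0.39) and Etv1 from 4.10, 4.69 and 4.91 to 8.38, 8.63 and 8.98 CPM (0.93 ± 0.13). The inhibitor Spry4 went from 0.456, 0.534 and 0.622 to 3.34, 2.50 and 3.30 CPM (2.51 ± 0.29). The ERK phosphatase gene Dusp6 rose from 48.2, 47.2 and 49.8 to 106, 108 and 118 CPM (1.19 ± 0.05) and Spry2 had 1.17 ± 0.12. Dusp4 and Spry1, of the same families, did not pass (-0.11 and 0.02). The cyclin gene Ccnd1, a known target, rose from 90.5, 83.2 and 99.0 to 244, 242 and 246 CPM (1.43 ± 0.06). Etv5, Etv1 and Dusp6 rose more without IFNg than with it (differences 1.21, 0.77 and 0.75, edgeR adjusted p = 0.00541, 0.019 and 7.47e-06).

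Upstream of that pathway, 5 of 21 receptor tyrosine kinases and regulators rose (3 without shSdc1 replicate 1) and 6 fell. Lrig1, a membrane protein that lowers receptor levels, was at 0.228, 0.119 and 0.276 CPM in shRFP and 3.40, 3.00 and 2.63 CPM in shSdc1 (3.82 ± 0.30). Slc25a26, which shares 144 exonic bases with Lrig1 on the opposite strand, had 0.07. Axl rose from 8.80, 10.5 and 9.61 to 18.0, 18.5 and 19.3 CPM (0.96 ± 0.09) and the neuregulin receptor gene Erbb3 fell from 99.7, 97.2 and 97.0 to 57.0, 57.0 and 57.5 CPM (-0.78 ± 0.05). The ephrin receptor gene Epha2 went from 0.684, 0.119 and 0.138 to 2.00, 2.44 and 1.71 CPM (2.53 ± 0.46). Of 17 receptor kinase ligands 6 rose and 2 fell. Tgfa, a ligand of the EGF receptor, went from 4.06, 5.81 and 4.91 to 14.03, 11.9 and 11.2 CPM (1.34 ± 0.13), and Artn, a ligand of the RET system, from 0.410, 0.593 and 0.553 to 2.43, 2.13 and 3.48 CPM (2.38 ± 0.31). Fgfr1 had 0.66 ± 0.22 with groups that overlapped, and its call ended in 5 processing alternatives other than a fold minimum, among them without shSdc1 replicate 3 (edgeR adjusted p = 0.145).

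Of 22 AP-1 and immediate early factors 7 were higher, 4 lower and 11 not past the test, and the 4 became 2 when any one of the 6 libraries was left out. Fosl2 rose from 17.2, 17.2 and 18.0 to 54.1, 51.1 and 52.8 CPM (1.59 ± 0.10) and Jun from 61.1, 65.1 and 58.3 to 108, 107 and 109 CPM (0.81 ± 0.08), both subunits of AP-1. Maff, a small Maf protein gene, rose from 2.60, 2.25 and 2.07 to 4.98, 3.94 and 5.19 CPM. Nr4a3, an orphan nuclear receptor, fell from 27.4, 26.2 and 25.4 to 8.38, 9.45 and 9.65 CPM (-1.53 ± 0.11). The letters of the AP-1 site, TGANTCA on both strands, stood before the start in 4.0% of all promoters. They stood in 8.8% of the 226 with a gene at least 2-fold higher and in 7.8% of the 103 with a gene at least 2-fold lower. With the 50 bases after the start added, these shares were 4.6%, 9.7% and 10.7%. Among the 12 genes with the highest folds 8 had a promoter in the table and 3 held the letters. They are shown with those letters in capitals, from Tinagl1 (chr4:130175254-130175332, minus strand), Capn6 (chrX:143827428-143827506, minus strand) and Cp (chr3:19956841-19956919, plus strand).
Tinagl1: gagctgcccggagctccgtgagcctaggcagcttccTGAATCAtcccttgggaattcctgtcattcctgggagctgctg
Capn6: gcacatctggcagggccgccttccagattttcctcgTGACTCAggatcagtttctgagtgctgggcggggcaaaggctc
Cp: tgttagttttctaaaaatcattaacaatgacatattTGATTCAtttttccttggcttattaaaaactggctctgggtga
Searched the same way, the letters of an NF-kB motif stood in 1.4% of all promoters and 4.4% of those at least 2-fold higher. The ETS form CCGGAAGT stood in 6.4% and 0.4%, the latter 1 promoter of 226. In promoters of genes at least 2-fold lower, the NF-kB letters stood in 0.0% and the ETS form in 2.9%. Among all genes past the test the ETS form stood in 4.2% of those higher and 4.6% of those lower.

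Genes of the list of actin and myosin regulators numbered 40, of which 26 rose and 5 fell at a median log2 fold change of 0.29. Flna, the abundant actin cross-linker filamin A, rose from 1137, 1128 and 1155 to 1433, 1444 and 1412 CPM (0.33 ± 0.04). Tagln2, an actin-binding calponin relative, went from 0.319, 0.356 and 0.345 to 4.56, 3.19 and 3.48 CPM (3.44 ± 0.29), and Capg, a filament-capping protein gene, from 9.48, 10.0 and 9.61 to 19.9, 18.1 and 19.5 CPM (0.98 ± 0.10). Non-muscle myosin Myh9 (0.42 ± 0.04), the focal adhesion proteins Vcl (0.45 ± 0.05) and Tln1 (0.20 ± 0.04), alpha-actinin Actn1 (0.41 ± 0.04) and the caldesmon gene Cald1 (0.42 ± 0.05) rose by smaller amounts. Arhgdib (-0.53 ± 0.05), Cdc42ep3 (-0.57 ± 0.12) and Cdc42ep5 (-0.65 ± 0.14), all regulators of small GTPases, fell. With IFNg, in other libraries, 23 of the 26 that rose were higher too, as were 60.1% of all 1969 genes that rose.

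Genes of the Hippo pathway and known targets of YAP, its effector that responds to tension, together numbered 28. Of these 9 rose and 6 fell, and 8 and 2 without shSdc1 replicate 3. Ccn1, a secreted matricellular protein, rose from 25.4, 27.8 and 29.5 to 61.2, 58.7 and 65.2 CPM (1.17 ± 0.06), and Vgll3, a TEAD cofactor, from 247, 252 and 228 to 366, 367 and 365 CPM (0.60 ± 0.07). The coagulation starter F3 rose from 15.1, 16.1 and 12.2 to 19.3, 18.7 and 19.5 CPM. Of 35 junction and adhesion genes 11 rose and 5 fell. Mcam, an adhesion molecule of melanoma cells, rose from 274, 268 and 289 to 658, 626 and 668 CPM (1.23 ± 0.04) and F11r, a tight junction protein gene, from 3.60, 5.58 and 4.15 to 7.90, 6.44 and 7.64 CPM (0.73 ± 0.15).

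Of 12 serpin protease inhibitors 8 rose and 0 fell, and the median log2 fold change was 0.60. Serpinb8 went from 1.73, 1.42 and 2.07 to 3.22, 4.07 and 4.89 CPM (1.23 ± 0.21). Serpinb6b overlapped between groups (0.957, 0.890 and 1.38 against 2.07, 2.13 and 1.34 CPM), and the call of the gene Serpinb6b ended in 8 alternatives, such as without shRFP replicate 1 (edgeR adjusted p = 0.147). Its family members are alike in sequence, so reads may be split among Serpinb6 and Serpinb9 copies, and those values are uncertain. Of 16 plasminogen and cathepsin genes 9 rose and 1 fell (2 without shRFP replicate 1 or shSdc1 replicate 2). The tissue plasminogen activator Plat rose from 3.60, 3.74 and 3.59 to 6.68, 7.82 and 7.64 CPM (1.02 ± 0.14), and the urokinase receptor Plaur from 21.1, 21.4 and 19.8 to 29.0, 33.5 and 28.7 CPM (0.55 ± 0.07). The cathepsin gene Ctsh rose from 2.96, 3.74 and 3.39 to 7.71, 7.82 and 7.39 CPM (1.19 ± 0.13). Cst6, a cystatin that inhibits cathepsins, rose from 57.3, 58.4 and 60.5 to 109, 116 and 115 CPM (0.95 ± 0.06). Proteases and protease inhibitors were thus both among the genes that rose. S100, annexin and galectin genes, calcium and sugar binders of the membrane, rose in 11 of 20 cases and fell in 4. Anxa1 rose from 203, 194 and 201 to 381, 367 and 376 CPM (0.91 ± 0.04), S100a11 from 84.5, 87.4 and 94.0 to 159.5, 166 and 159 CPM (0.87 ± 0.04) and S100a6 from 2.46, 2.37 and 1.87 to 4.56, 4.94 and 4.58 CPM (1.05 ± 0.18), while S100b fell (-0.61 ± 0.05).

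Of 12 heparan sulfate carriers measured 8 were higher (5 without shRFP replicate 1) and 2 lower, Sdc1 itself and Sdc2 (-0.21 ± 0.06). Sdc2 did not pass without shRFP replicate 1 or shSdc1 replicate 3 (edgeR adjusted p = 0.0764 and 0.0973). Sdc3 was at 60.3, 58.5 and 69.0 CPM in shRFP and 108, 109.8 and 108 CPM in shSdc1 (0.80 ± 0.06), while Sdc4 did not pass (0.07 ± 0.06). The glypican gene Gpc4 went from 0.547, 0.652 and 0.691 to 2.67, 1.69 and 2.57 CPM (1.88 ± 0.30) and Col18a1, a basement membrane collagen with heparan sulfate chains, from 0.274, 0.237 and 0.622 to 2.67, 2.13 and 1.71 CPM (2.57 ± 0.32). Agrn (0.25 ± 0.05), Hspg2 (0.47 ± 0.05) and Tgfbr3 (0.44 ± 0.12) rose as well, the last not without shRFP replicate 1 (edgeR adjusted p = 0.0799). Of the enzymes that build and trim the chains 9 of 23 rose and 4 fell. The chain polymerase Ext1 (0.47 ± 0.08), the initiating xylosyltransferases Xylt1 (0.34 ± 0.08) and Xylt2 (0.26 ± 0.07) and the sulfatase Sulf2 (0.43 ± 0.04) were higher. The sulfotransferase Hs3st1 fell from 5.70, 5.22 and 5.04 to 2.49, 2.56 and 1.28 CPM (-1.34 ± 0.22), heparanase, Hpse, which cuts the chains, from 13.5, 13.2 and 11.9 to 5.53, 6.51 and 4.58 CPM (-1.22 ± 0.12), and Ndst3 from 36.6, 32.0 and 33.0 to 19.99, 18.8 and 20.9 CPM (-0.77 ± 0.08). The falls of Hs3st1 and Hpse were larger without IFNg (differences -1.24 and -0.68, edgeR adjusted p = 0.0191 and 0.0139).

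Of 39 semaphorin, plexin and axon guidance genes 9 rose and 10 fell. The 5 secreted class 3 semaphorins measured all rose. Beside Sema3f, Sema3c rose from 7.02, 6.47 and 5.80 to 22.4, 24.3 and 25.7 CPM (1.90 ± 0.14), Sema3d had 1.73 ± 0.20, Sema3e 0.83 ± 0.21 and Sema3b 0.24 ± 0.05. Membrane-bound semaphorins that fell were Sema6d, Sema7a (-1.54 ± 0.25), Sema4b (-0.32 ± 0.09) and Sema4c (-0.22 ± 0.05), while Sema6a (0.20 ± 0.06) and Sema6b (0.28 ± 0.09) rose. The call of Sema4b ended without shSdc1 replicate 2 (edgeR adjusted p = 0.0611). Sema6a did not pass without shRFP replicate 1 or 2 or shSdc1 replicate 2 or 3 (edgeR adjusted p = 0.0983, 0.059, 0.0805 and 0.0579), and Sema6b did not pass without shRFP replicate 1 or shSdc1 replicate 1 (edgeR adjusted p = 0.111 and 0.0688), nor without shSdc1 replicate 3. The co-receptor Nrp1 fell (-0.38 ± 0.08) and Nrp2 rose (0.23 ± 0.03).

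Of 34 TGF-beta and BMP genes 10 rose and 6 fell. Ltbp4, which holds latent TGF-beta in the matrix, rose from 20.1, 17.3 and 19.2 to 52.6, 52.8 and 55.6 CPM (1.503 ± 0.08), and Ltbp1 from 0.182, 0.178 and 0.138 to 1.88, 1.56 and 1.41 CPM (3.21 ± 0.40). The ligand gene Tgfb1 rose from 1.14, 1.30 and 1.73 to 4.01, 3.19 and 3.67 CPM (1.41 ± 0.24). Bmp1, a protease of procollagen, rose from 30.04, 30.8 and 33.9 to 59.0, 55.5 and 59.8 CPM (0.88 ± 0.07). Of 26 Wnt genes 2 rose and 6 fell. The receptors Fzd7 (223, 216 and 220.1 to 134, 140.0 and 143 CPM) and Lgr6 (3.46, 4.63 and 3.87 to 1.82, 2.19 and 1.65 CPM) were lower. Axin2, a feedback target of the pathway, had -0.48 ± 0.17, and its call ended in 10 alternatives, among them without shSdc1 replicate 3 (edgeR adjusted p = 0.0746). In the Notch list 3 of 15 rose (20%) and 2 fell (13.3%), and 1 fell without shRFP replicate 3 or shSdc1 replicate 2. The ligand Jag1 rose from 11.9, 13.4 and 10.8 to 27.2, 26.5 and 26.6 CPM (1.15 ± 0.09) and the receptor Notch2 had 0.28 ± 0.05, while the call of Notch1 (0.74 ± 0.22) ended without shSdc1 replicate 3 (edgeR adjusted p = 0.091).

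Genes of hypoxia and glycolysis fell in 21 of 43 cases and rose in 3, with a median log2 fold change of -0.14. Targets of the hypoxia factor HIF that fell included Ndrg1, from 81.1, 78.6 and 83.9 to 43.6, 45.9 and 44.7 CPM (-0.86 ± 0.05), the mitophagy receptor Bnip3, from 18.9, 17.7 and 14.99 to 11.6, 10.1 and 9.47 CPM (-0.73 ± 0.13), Aldoc (-0.74 ± 0.07), Pdk1 (-0.46 ± 0.08) and Vegfa (-0.49 ± 0.08). Ldha (-0.12 ± 0.05), Pgk1 (-0.05 ± 0.05), Car9 (-0.07 ± 0.27) and Slc2a1 (-0.02 ± 0.06), from the same list, did not pass. Gapdh carried the largest value (-1.996 ± 0.45), but its libraries were at 75.5, 481 and 453 CPM in shRFP and 53.4, 140.2 and 58.6 CPM in shSdc1, and the groups overlapped. Gapdh has many near-identical copies in the genome, and how reads were shared among them is not stated in the labels, which leaves its value uncertain. Ankrd37 also shares 57 exonic bases with Ufsp2, at 45.9 CPM, and 259 with Lrp2bp, at 1.1 CPM, both on the opposite strand. Egln3 and Ankrd37 lost their calls without shSdc1 replicate 3 (edgeR adjusted p = 0.0669 and 0.12).

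Cholesterol and fatty acid synthesis fell in 19 of 44 cases and rose in 2. The 2 became 1 without any one of shRFP replicates 1 and 2 and shSdc1 replicates 1 and 2. Scd1, which makes monounsaturated fatty acids, fell from 279.5, 273 and 275 to 204, 206 and 200 CPM (-0.44 ± 0.04), the sterol sensor partner Insig2 from 66.6, 67.5 and 64.4 to 47.6, 48.0 and 48.8 CPM (-0.46 ± 0.05) and the phosphomevalonate kinase gene Pmvk from 21.5, 24.7 and 22.8 to 17.1, 17.2 and 17.6 CPM (-0.41 ± 0.07). Of 35 purine and pyrimidine genes 15 rose and 3 fell, and 1 fell when any one library but shRFP replicate 2 was left out. Beside Xdh, the uridine phosphorylase Upp1 went from 1.28, 1.54 and 1.59 to 2.85, 3.38 and 2.57 CPM (1.01 ± 0.23), and the synthesis enzymes Ctps (0.31 ± 0.05), Adsl (0.30 ± 0.04) and Umps (0.27 ± 0.05) rose slightly. Enpp2, which makes the lipid signal lysophosphatidic acid, fell from 106, 106 and 107 to 41.6, 43.6 and 39.9 CPM (-1.35 ± 0.06), and Sphk1, which makes sphingosine 1-phosphate, rose from 21.0, 19.8 and 19.7 to 46.2, 43.9 and 41.6 CPM (1.12 ± 0.07).

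Of 59 nuclear genes of mitochondrial respiration 6 rose and 10 fell, which is 27.1% against 28.6% of all genes. The 6 became 2 without shRFP replicate 1 and 3 without shRFP replicate 2. The knockdown effect differed between no IFNg and IFNg for 25 of the 59, against 9.73% of all genes. Of 10 mitochondrially encoded genes 2 fell, mt-Cytb from 5430, 5200 and 5102 to 4341, 4152 and 4386 CPM (-0.29 ± 0.04) and mt-Nd2 from 2338, 2362 and 2211 to 1850, 1736 and 1850 CPM (-0.35 ± 0.03). The 13 genes of that list summed to 22100 to 23700 CPM in shRFP and 21300 to 22100 CPM in shSdc1, without TMM factors. With TMM factors the 10 measured genes summed to 21858 to 23271 CPM in shRFP and 21186 to 21838 CPM in shSdc1. Of 50 lysosomal genes 14 were higher (28%) and 12 lower (24%). The proton pump subunit Atp6v0a1 fell from 220.4, 215 and 211 to 129, 133 and 136 CPM (-0.70 ± 0.05) and the iduronate sulfatase Ids from 48.9, 51.4 and 49.7 to 29.7, 35.0 and 31.3 CPM (-0.64 ± 0.07), while Cd68 rose from 2.69, 2.79 and 1.87 to 7.23, 6.94 and 7.58 CPM (1.54 ± 0.18). Cd68 and Lyz2 (0.319, 0.593 and 0.622 to 1.28, 1.56 and 1.22 CPM) were the only leukocyte-list genes measured, and the leukocyte genes Itgam, Adgre1 and Csf1r were at 0 in all 6 libraries.

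Ribosome biogenesis genes, which make and process ribosomal RNA, were higher for 27 of 43 and lower for 2 (at most 1 when a library other than shSdc1 replicate 3 was left out), with log2 fold changes of 0.17 at the median and 0.44 at most. Utp20 rose from 115, 118 and 117 to 158, 160.1 and 156 CPM (0.44 ± 0.05), Nop16 from 42.5, 41.4 and 47.5 to 60.8, 58.2 and 55.8 CPM and Polr1b, a subunit of RNA polymerase I, from 75.1, 78.2 and 80.02 to 103, 106 and 98.3 CPM (0.40 ± 0.05). With IFNg 10 of the 27 were higher, against 60.1% of all genes that rose. Polr1b rose less there (0.04, edgeR adjusted p of the difference = 0.00782). Of genes for the ribosomal proteins themselves 3 of 74 rose and 4 fell, 9.46% in all. Leaving out 1 library gave 1 to 4 higher and 0 to 3 lower. For 50 of the 74 the knockdown effect differed between no IFNg and IFNg, against 9.73% of all genes. Those with the largest values varied within groups, as Rps27a at 346, 97.5 and 258 CPM in shRFP, and have many near-identical copies. Rps27a, Rpl7a, Rpl13 and Rpl13a are therefore uncertain, and each lost its call in at least 3 alternatives.

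In the DNA replication and G1/S list 10 of 43 rose and 4 fell, which is 32.6% against 28.6% of all genes. Ccnd1 rose as given above, and Cdk6, another kinase-complex gene of G1, rose from 29.4, 31.4 and 30.1 to 65.5, 66.4 and 61.2 CPM (1.09 ± 0.06), and E2f7 went from 38.4, 40.5 and 37.7 to 58.4, 54.7 and 55.2 CPM. Mcm3 (0.09), Mcm5 (0.02), Mcm7 (0.00) and Pcna (0.03) did not pass. Cdk2 was lower, at 602, 591 and 581 and then 292, 295 and 294 CPM (-1.01 ± 0.05), but it shares 34 exonic bases with Pmel on the opposite strand, a pigment gene at a mean of 4394 CPM in shRFP that fell by 1.29 on the log2 scale. Without a known strand setting the 2 genes' reads cannot be told apart there. Ccnd1 shares 818 exonic bases with LTO1 on the opposite strand, which was at 17.3 CPM and had a log2 fold change of 0.19. In the mitosis list 10 of 38 rose and 4 fell, or 36.8%. Ccnb2 (132, 135 and 133 to 96.7, 96.6 and 101.3 CPM) and Cdc25b (114, 116 and 114 to 85.2, 81.4 and 78.0 CPM) fell and Kif23 (0.30 ± 0.05) and Anln (0.28 ± 0.04) rose.

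Known p53 targets rose in 11 of 29 cases (7 without shSdc1 replicate 3) and fell in 5 (3 without shRFP replicate 1 or 2 or shSdc1 replicate 1). Plk2 went from 2.42, 2.91 and 4.84 to 11.1, 12.6 and 12.4 CPM (1.87 ± 0.18), Gadd45b from 3.37, 4.15 and 4.49 to 9.96, 9.82 and 10.8 CPM (1.37 ± 0.14), Gadd45g from 2.83, 2.91 and 2.07 to 5.16, 5.44 and 5.93 CPM and Btg2 from 4.19, 3.98 and 3.39 to 6.32, 7.32 and 5.56 CPM. These genes also answer to other signals. The cell cycle inhibitor Cdkn1a (0.24 ± 0.08) lost its call without shRFP replicate 2 or shSdc1 replicate 1 or 3 (edgeR adjusted p = 0.0912, 0.0649 and 0.0502). Mdm2 (0.16 ± 0.05) lost it without shRFP replicate 3 or shSdc1 replicate 3 (edgeR adjusted p = 0.0736 and 0.0565). Bax (0.03 ± 0.09) and Ccng1 (0.18 ± 0.09) did not pass. In the BCL2 family 5 of 12 rose and 3 fell: the death agonist Bid rose from 34.6, 32.8 and 35.1 to 57.7, 59.7 and 59.6 CPM (0.79 ± 0.05), and Bmf, another agonist, fell from 5.29, 5.46 and 5.18 to 2.92, 2.56 and 2.57 CPM (-0.98 ± 0.15), as did the protective Bcl2l2 (33.7, 33.3 and 32.1 to 22.3, 21.5 and 21.99 CPM). Bid shares 628 exonic bases with Bcl2l13 on the opposite strand, which was at 201.5 CPM and had a log2 fold change of -0.09, so its value is uncertain without a known strand setting.

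NF-kB subunits, feedback genes and targets rose in 9 of 23 cases and fell in 3. The inhibitor Nfkbia rose from 28.0, 30.1 and 30.1 to 45.5, 43.7 and 42.7 CPM (0.58 ± 0.06), Nfkbie from 14.4, 13.6 and 18.1 to 23.9, 25.6 and 23.6 CPM (0.67 ± 0.10), and the subunit Relb from 9.57, 11.9 and 10.6 to 15.4, 18.3 and 15.3 CPM (0.61 ± 0.11). These 3 rose more with IFNg (1.38, 1.43 and 1.55; edgeR adjusted p of the differences 2.11e-05, 0.00161 and 0.0019). All 9 that rose without IFNg were higher with it, against 60.1% of all genes that rose.

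Among 40 neural crest and lineage transcription factors 9 rose and 12 fell. Sox9 fell from 7.43, 6.70 and 7.12 to 2.49, 2.81 and 1.96 CPM (-1.55 ± 0.19), a fall larger than with IFNg (-0.46, edgeR adjusted p of the difference = 0.0161). Hmga2, a chromatin protein of early development, rose from 48.8, 44.97 and 47.5 to 104, 108 and 111 CPM (1.19 ± 0.07) and Runx2, the bone factor, from 3.19, 1.72 and 2.28 to 8.99, 8.32 and 9.16 CPM (1.85 ± 0.19). Sox10, the central melanocyte factor, had -0.13 ± 0.04, but did not pass without shRFP replicate 3 or shSdc1 replicate 1 (edgeR adjusted p = 0.146 and 0.0707), nor without shSdc1 replicate 3, and Zeb2 (-0.14 ± 0.07) and Snai2 (-0.14 ± 0.13) did not pass. Of 17 Hox genes 2 rose and 1 fell, and leaving out 1 library gave 1 to 2 and 0 to 1, with Hoxa11 at 2.51, 2.14 and 2.97 and 6.08, 6.19 and 5.50 CPM (1.23 ± 0.17).

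Ion channels and pumps were higher for 8 of 41 and lower for 12. Trpm1, a channel gene of melanocytes, fell from 146, 147 and 143 to 52.7, 51.5 and 51.6 CPM (-1.48 ± 0.05), and Itpr3, which releases calcium from internal stores, rose from 8.43, 7.30 and 6.56 to 23.9, 21.6 and 21.9 CPM (1.58 ± 0.12). Kcnk2 (0.957, 1.01 and 1.31 to 3.16, 2.69 and 2.69 CPM) rose from a low level. Of 44 cilium genes 2 were higher and 8 lower, and leaving out 1 library gave 1 to 2 and 5 to 8. Cfap54 fell from 274, 270.3 and 266 to 169, 175 and 169.7 CPM (-0.66 ± 0.06), opposite to Cfap70. Of 27 imprinted and long noncoding genes 8 rose (5 without shSdc1 replicate 2) and 2 fell (1 without any one library but shRFP replicate 3). Those that rose included the small nucleolar RNA host gene Snhg5 (21.4, 22.2 and 21.97 to 33.5, 30.6 and 32.2 CPM) and Mir22hg (5.97, 7.36 and 5.25 to 11.1, 9.38 and 8.92 CPM).

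Ranked by the change in CPM rather than by fold, the largest rises outside the 3 best-known sets included cytosolic chaperones, cytoskeletal genes, Mcam and Cp. Mcam and Cp are given above. Hspa8, the constitutive HSP70 chaperone, rose from 2408, 2386 and 2511 to 3032, 3065 and 2927 CPM (0.30 ± 0.04), Hsp90ab1 from 3197, 3280 and 3389 to 3823, 3659 and 3640 CPM (0.17 ± 0.04) and Hsp90aa1 from 1610, 1629 and 1625 to 1974, 1964 and 1932 CPM (0.27 ± 0.05). The intermediate filament gene Vim rose from 2484, 2525 and 2704 to 2948, 2856 and 2969 CPM and the tubulin gene Tubb5 from 1929, 1978 and 2067 to 2340, 2338 and 2336 CPM. The rises of the chaperones, Vim and Tubb5 are small folds of abundant mRNAs. Ranges lay apart because the rule that chose the genes required it. With IFNg, Hspa8 was lower in shSdc1 (-0.17, edgeR adjusted p of the difference = 8.21e-05). The falls included Mgat5, a glycosyltransferase that branches N-glycans, from 729.8, 720.4 and 751 to 413, 413 and 399 CPM (-0.85 ± 0.04), Dmxl2, a regulator of the proton pump, from 610.0, 604 and 596 to 307, 316 and 309 CPM (-0.96 ± 0.05), Ptma from 1801, 1864 and 1887 to 1525, 1552 and 1611 CPM and Scd2 from 2752, 2687 and 2762 to 2498, 2469 and 2380 CPM. The elongation factor Eef1a1 had -0.10 ± 0.03, and this call ended in 4 alternatives, among them without shSdc1 replicate 3 (edgeR adjusted p = 0.0617).

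**Figure D5:**
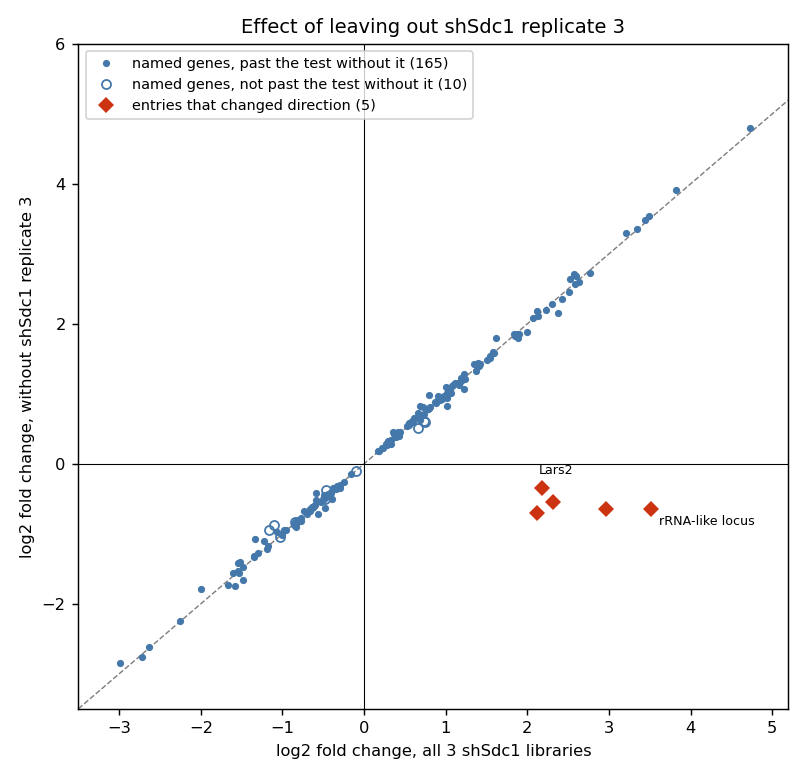
Log2 fold change of shSdc1 over shRFP with all libraries (x axis) and without shSdc1 replicate 3 (y axis) for the 175 genes chosen by rule (blue, open where the gene did not pass without the library). The 5 entries past the test in both fits that changed direction are in red, and both values are equal on the dashed line. The blue points follow the line, with 165 of 175 past the test, and the rRNA-like locus, Lars2 and 3 assembled loci lie below 0 on the y axis.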

How the data were processed

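Gene expression was measured in 12 RNA-seq libraries of B16 cells, in 4 groups of 3. The authors deposited 1 table of raw read counts per gene in 56093 entries, whole numbers that differ in total between libraries. Trimmomatic, HISAT2 2.0.5 and HTSeq were used with the GRCm39 build, per the submitters' processing notes. Neither the gene annotation nor the strandedness of counting is given in the sources used here. Symbols were taken from GENCODE M21 and matched 52083 entries, 3333 Ensembl entries had none and 677 were assembled loci. No column of the table was left unused.

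Counts were scaled by TMM and filtered with filterByExpr (minimum count 10, minimum total 15), which kept 14089 genes. All 12 libraries entered 1 quasi-likelihood fit in edgeR 4.0.16 (R 4.3.3) that gave each group its own mean. It left 8 residual degrees of freedom, its common biological coefficient of variation was 0.0633, and the code was tested on simulated counts. Tests were two-sided, with Benjamini-Hochberg adjustment over all genes at 0.05 and no fold minimum. Standard errors of log2 fold changes were taken as the absolute value divided by the root of the F statistic and for low counts can be smaller than the counting error. The contrasts were knockdown against control without IFNg, the same with IFNg, and their difference. Levels are TMM-scaled CPM.

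Members and gene lists were chosen with earlier results of these data known. The rule for named genes took Sdc1, the 12 highest and 12 lowest log2 fold changes outside the pigment, matrix and chemokine lists (adjusted p under 0.05, at least 5 CPM in a group, ranges apart), the 8 largest rises and falls in CPM, and up to 4 genes per list with at least 1 CPM; other members are named as examples of their list. Lists were described by counts and medians with no set test. Replicate numbers gave no sign of pairing the unstimulated libraries. Deviations of same-numbered libraries correlated at -0.03, 0.09 and 0.01 over 10269 genes, and those of differently numbered ones at -0.09 to 0.08. With 3 libraries per group this check cannot exclude a pairing, and the IFNg libraries were not in it. Alternatives were other scalings, DESeq2 1.42.0, limma 3.58.1 (voom), other filters, the 6 unstimulated libraries alone, a replicate block, a minimum log2 fold change of 1, leaving out the rRNA-like locus, assembled loci or each library. The fit of the 6 unstimulated libraries without shSdc1 replicate 3 was added after seeing the data. A few genes that the rule or lists hold are not reported here.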

Additional observations from a re-analysis of the deposited data

Results flagged for a closer look

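Of the 175 genes chosen by rule, 44 had a knockdown effect that differed between unstimulated and IFNg-treated cells by a test of the difference itself (edgeR quasi-likelihood, adjusted over all genes; 9.73% of all genes passed). Values are the log2 fold change without IFNg minus that with IFNg, so a negative value of a gene that fell is a larger fall without IFNg.

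Genes of amino acid supply and stress had the larger fall without IFNg: Nupr1 -1.36, Chac1 -1.07, Ddit4 -0.92, Gpt2 -0.82, Herpud1 -0.45, Slc6a9 -0.78, Slc1a4 -0.57, Slc1a5 -0.53, Cars -0.47 and Sars -0.45. Adjusted p ran from 1.27e-05 for Nupr1 to 0.00351 for Slc1a4 in these 10 genes. Redox genes rose more without IFNg, with Nqo1 1.02, Srxn1 0.75 and Gclm 0.42. Sec61b of the translocon fell less without IFNg (0.21).

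Signalling genes differed in both directions. Etv5 (1.21), Etv1 (0.77), Sphk1 (0.35), S100a11 (0.28) and Cst6 (0.64) had the higher value without IFNg. Axl (-0.75), Nfkbia (-0.79), Nfkbie (-0.76) and Relb (-0.93) rose more with it. Erbb3 fell more without IFNg (-0.36), as did the heparan sulfate genes Hs3st1 (-1.24) and Hpse (-0.68), the cell death genes Bmf (-0.92) and Bcl2l2 (-0.33), and Sox9 (-1.09), Gjb2 (-0.52), Sytl2 (-0.36), Kif3a (-0.25) and mt-Nd2 (-0.23).

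Hspa8 (0.47), Hsp90ab1 (0.21), Tubb5 (0.31), Hoxa11 (1.32), Polr1b (0.35), E2f7 (0.32) and Tinagl1 (0.62) had the higher value without IFNg. Scd2 fell less without it (0.16). Gapdh (-2.25), Rpl7a (0.84) and Rpl13a (0.80) also passed, and each has many near-identical copies, so their values are uncertain.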

How the results depend on the processing

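The number of genes past the test without IFNg, 4024, stayed within 1.5 times under every alternative but the fold minimum. It was 3215 to 3494 when a single library of either group was left out, 3602 with DESeq2, 4461 in the 6 unstimulated libraries alone and 3864 in those without shSdc1 replicate 3. Under the replicate block it was 3720, with 1811 higher and 1909 lower, and 1028 for the difference between no IFNg and IFNg, with 26 in the ATF4 list. No pairing of the libraries by number is stated in the labels, and the block changed no direction among the named genes. Against a minimum log2 fold change of 1, 112 genes passed without IFNg (84 higher, 28 lower), 209 passed with IFNg and 0 passed for the difference, the ATF4 list included at 0. The difference counted 1371 genes and ranged from 789 to 1428 when a library was left out: 847 without shRFP replicate 1, 839 without shRFP replicate 2 and 789 without shSdc1 replicate 1. The cause was not tested. In the ATF4 list it passed for 23 to 28 genes. Of 2975 values of named genes under the other alternatives 0 reversed and 109 lost their call, and 1223 of 1326 list counts stayed within 1.5 times. Without shSdc1 replicate 3, 11 of 78 list counts moved further than that. Scaling by upper quartile or DESeq2 size factors gave 49.5% and 50.6% of calls as higher, against 48.9%. Genes under about 1 CPM rest on few counts, and small changes there were not detectable at this depth.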

Other observations

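Several genes outside the lists and the rule for named genes also changed in unstimulated shSdc1 cells; they were chosen after their values were seen. Ass1, the argininosuccinate synthase that lets cells make arginine, rose from 28.8, 28.6 and 29.1 CPM in shRFP to 112, 111 and 114 CPM in shSdc1 (log2 fold change 1.96 ± 0.10, edgeR adjusted p = 4.96e-11). The complement protease genes C1ra (9.16, 9.61 and 9.05 to 18.3, 23.3 and 20.4 CPM) and C1rl (8.71, 8.07 and 9.12 to 19.8, 17.9 and 21.7 CPM) rose, as C1s1 did. Tnfrsf12a, the receptor of the cytokine TWEAK, rose from 59.8, 61.8 and 69.1 to 146, 147 and 139 CPM (1.19 ± 0.06). Myof, a membrane repair protein gene of the ferlin family, rose from 128, 132 and 131 to 265, 276 and 269 CPM (1.05 ± 0.04), and the serum- and glucocorticoid-induced kinase gene Sgk1 from 14.2, 16.3 and 13.8 to 32.6, 32.8 and 31.3 CPM (1.13 ± 0.09). Wsb2, a ubiquitin ligase adaptor, fell from 255, 261 and 264 to 109.5, 111 and 106 CPM (-1.26 ± 0.04) and Aph1c, a subunit of gamma-secretase, from 114, 117 and 103 to 46.0, 51.0 and 45.9 CPM (-1.23 ± 0.06). In all of these genes the ranges of the groups did not overlap, as was so for 43.3% of all genes.

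By chromosome, 21.4% of 791 genes tested on chromosome 1 were lower and 10.9% higher, while of 526 on chromosome 15 there were 63 lower and 116 higher (22.1%). On the other 18 chromosomes at most 18.7% were lower and from 11.4% to 16.8% were higher. Protein-coding genes passed more often (15.9% higher, 16.1% lower of 11687) than processed pseudogenes (4.2% and 3.7% of 647). These shares were not tested.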
